A study of Mus musculus with 8 samples.

Results

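The 10 genes described here encode the enzymes and partners that place the Polycomb marks on chromatin, together with the demethylases that take one of these marks off. They are Ezh2, Eed, Suz12 and Jarid2 of Polycomb repressive complex 2 (PRC2), Bmi1, Rnf2, Cbx2 and Cbx7 of Polycomb repressive complex 1 (PRC1), and the demethylases Kdm6a and Kdm6b. They were chosen by name, and the RefSeq transcript row with the highest total was taken for each, which gave 10 of the 23483 genes of the deposited count table (14 of its transcript rows). PRC2 methylates lysine 27 of histone H3 (H3K27) through its catalytic subunit EZH2, which is inactive without EED and SUZ12. PRC1 carries a chromobox (CBX) subunit that binds trimethylated H3K27 and a RING subunit that ubiquitinates histone H2A. In embryonic stem cells both complexes sit on silent genes of developmental regulators, and KDM6A (UTX) and KDM6B (JMJD3) remove the methyl groups from H3K27 when such genes are switched on.

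Poly(A) RNA of cultured mouse C57BL/6 cells at 5.5 mM glucose was sequenced in 4 groups of 2 libraries. The first group was Sca1 cells carrying a lentiviral MISSION shRNA against Set7 (knock-down), and the second was Sca1 cells carrying the MISSION non-target shRNA vector (NTC). Both had been kept in 1 µg/ml of puromycin for a week or longer. The third was untreated Sca1 cells, called untreated cells where mESC values follow, and the fourth was untreated mouse embryonic stem cells (mESC) held undifferentiated with LIF. Sca1 cells are the progeny of mESC grown for 4 days on gelatin with LIF withdrawn, sorted on magnetic beads against the surface protein Sca1 to a purity above 80%, and expanded for 2 to 8 population doublings. A single shRNA sequence stands for the knock-down, so effects of the sequence and of the loss of Set7 cannot be told apart. The knock-down cells also differed from every other group in the levels of genes on chromosomes 15 and Y, as described further on. Effects of these differences and of the knock-down cannot be told apart. In bulk RNA, fewer cells of a type and less RNA per cell cannot be told apart either. The labels do not say that replicates were separate cultures, so p-values measure only the spread between these samples.

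Gene counts per library were 2507938 to 5080266. Replicates of NTC and of the knock-down lay close to counting noise (chi-square per gene of 1.54 and 2.09), whereas those of untreated Sca1 cells and of mESC did not (40.3 and 54.9), and 1 library of each stood apart. These 2 carry code 56 in the labels, where the others carry 12 or 34. Code 12 occurs only in the knock-down and NTC, and code 56 only in untreated Sca1 cells and mESC. When the knock-down or NTC is set against untreated Sca1 cells or mESC, effects of group and code cannot be fully told apart. Transcript NR_046233, a non-coding RNA without a symbol in the annotation used here, took 12.0% and 11.5% of gene counts in the 2 libraries of code 56 and 0.403% to 1.62% elsewhere. The chi-square per gene is a mean over genes on raw counts, so 1 such transcript can carry much of it. Its value without NR_046233 was not computed. Setd7, which encodes Set7, stood at 14.0 and 10.8 CPM in the knock-down libraries and at 60.7 and 66.6 CPM with NTC, with no overlap (log2 -2.39 ± 0.20, edgeR adjusted p = 1.71e-07). It stood at 76.3 and 66.3 CPM in untreated Sca1 libraries and at 11.2 and 16.5 CPM in mESC. Ly6a, which encodes Sca1, was at 13.0 and 4.42 CPM in untreated Sca1 libraries and at 9.85 and 5.72 CPM in mESC, so the libraries of these groups overlapped for the sort marker itself. The smooth muscle markers Acta2, Tagln, Cnn1 and Myh11 summed to 827 and 495 CPM in untreated Sca1 cells against 10.1 and 7.48 CPM in mESC. CPM here means a count scaled to the library total and corrected by the trimmed mean of M values (TMM), and a gene is called when its adjusted p is under 0.05 over the 13966 genes tested.

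The sequence of the shRNA target is shown because any match to a gene described here would bear on its level. In the line below, all 21 bases are in lower case because no stretch is singled out.
shRNA target in Setd7: ccgtgttcagagataccaaat
The whole target occurred in 1 GENCODE vM21 transcript, a transcript of Setd7 on chromosome 3, and in 0 of the 10 genes. The longest stretch that any of the 10 shared with it was 7 to 9 bases, with 8 in Kdm6b. Where these stretches lie within the target was not examined. An effect of the shRNA on these genes through such short matches was not tested. The promoters of the 3 core PRC2 genes are shown because these 3 genes fell together in Sca1 cells, as described further on. They are the 300 bases around the start site that RefSeq gives for each (GRCm38.p6), 5′ to 3′ on the gene's own strand. Capitals mark CCAAT boxes, read on either strand, and the E2F octamers TTTCCCGC and TTTGGCGC.
Ezh2, chr6:47594981-47595280, minus strand: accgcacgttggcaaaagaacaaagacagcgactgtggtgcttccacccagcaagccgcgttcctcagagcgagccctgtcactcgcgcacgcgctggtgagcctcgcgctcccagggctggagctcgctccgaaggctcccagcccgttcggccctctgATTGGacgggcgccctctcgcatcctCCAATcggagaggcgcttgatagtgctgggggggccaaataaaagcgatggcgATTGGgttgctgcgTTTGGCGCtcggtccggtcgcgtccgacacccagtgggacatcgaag
Eed, chr7:89980927-89981226, minus strand: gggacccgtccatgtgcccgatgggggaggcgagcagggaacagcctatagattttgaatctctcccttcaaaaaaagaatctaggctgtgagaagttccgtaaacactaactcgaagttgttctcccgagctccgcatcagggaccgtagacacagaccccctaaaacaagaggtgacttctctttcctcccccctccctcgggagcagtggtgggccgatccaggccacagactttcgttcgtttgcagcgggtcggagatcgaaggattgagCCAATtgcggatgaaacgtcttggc
Suz12, chr11:79992856-79993155, plus strand: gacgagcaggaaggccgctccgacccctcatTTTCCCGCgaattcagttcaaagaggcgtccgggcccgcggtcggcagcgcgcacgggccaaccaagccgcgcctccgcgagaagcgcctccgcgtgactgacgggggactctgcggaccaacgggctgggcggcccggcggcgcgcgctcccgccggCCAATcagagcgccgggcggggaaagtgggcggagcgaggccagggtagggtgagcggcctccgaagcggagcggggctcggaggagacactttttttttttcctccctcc
The Ezh2 window held 3 CCAAT boxes, at positions -90, -64 and -11 from the start site, and a TTTGGCGC octamer at 4. The Suz12 window held 1 CCAAT box at -61 and a TTTCCCGC octamer at -219, and the Eed window held 1 CCAAT box at 26 and neither octamer. Of 32851 RefSeq promoter windows of this length, 37.4% held a CCAAT box, 3.37% held 3 or more and 1.56% held either octamer. CCAAT boxes are read by the factor NF-Y in many promoters, and E2F octamers by the E2F factors that drive cell-cycle genes. A match of letters does not show that a factor was bound.

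**Figure D1:**
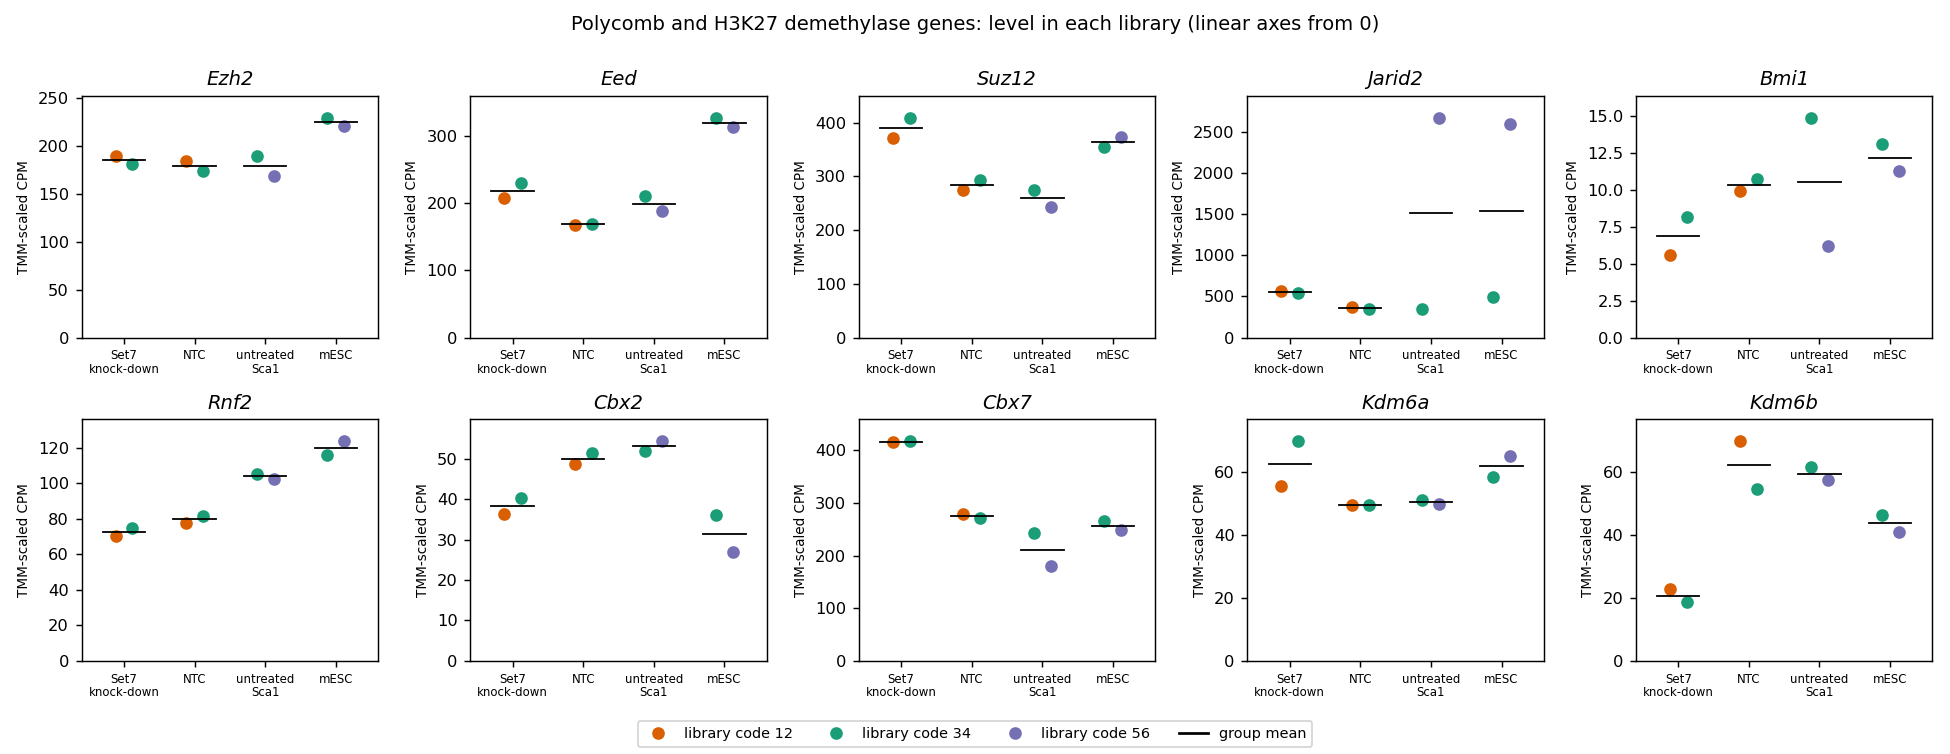
Level of each of the 10 genes (TMM-scaled CPM, linear axis from 0) in the 8 libraries, with the knock-down left of NTC and untreated Sca1 cells left of mESC; points are libraries coloured by library code and bars are group means of 2. Kdm6b stands at 22.8 and 18.7 CPM in the knock-down and at 40.9 CPM or more in every other library, and Jarid2 stands at 2666 and 2588 CPM in the 2 libraries of code 56 and at 570 CPM or less in the others.

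Among the core PRC2 genes, Eed and Suz12 fell in untreated Sca1 cells relative to mESC and rose in the knock-down relative to NTC, while Ezh2 moved less. Eed, the subunit that reads trimethylated H3K27 and stimulates the enzyme, had 207 and 229 CPM in the knock-down libraries and 167 and 169 CPM with NTC. It had 210 and 188 CPM in untreated Sca1 libraries and 326 and 313 CPM in mESC. Both mESC libraries thus lay above all 6 libraries of Sca1 cells, and both knock-down libraries lay above both NTC libraries. Suz12, the scaffold subunit, had 372 and 409 CPM in the knock-down and 275 and 294 CPM with NTC. It had 274 and 244 CPM in untreated cells and 355 and 373 CPM in mESC, so the knock-down libraries overlapped with those of mESC. Ezh2, the methyltransferase itself, had 189 and 181 CPM in the knock-down and 185 and 173 CPM with NTC, and these 2 groups overlapped. It had 189 and 169 CPM in untreated cells and 229 and 221 CPM in mESC, which did not overlap.

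In untreated Sca1 cells against mESC, Eed fell by 0.68 ± 0.12 on the log2 scale (SE; edgeR quasi-likelihood test, Benjamini-Hochberg adjusted p = 0.000186). Suz12 fell by 0.49 ± 0.12 (edgeR adjusted p = 0.00318) and Ezh2 fell by 0.33 ± 0.12 (edgeR adjusted p = 0.0352). Among all genes tested, 16.8% were called lower and 18.7% higher in this comparison (35.5% in either direction), so 3 lower of the 10 genes is to be read against a background of that size. Within library code 34 the log2 differences were -0.63 for Eed, -0.37 for Suz12 and -0.28 for Ezh2, and within code 56 they were -0.73, -0.61 and -0.38 for the same genes. The Ezh2 call was kept in 7 of 17 alternative settings. It was lost without untreated replicate 2 (edgeR adjusted p = 0.176), without mESC replicate 1 (0.0566), without any 1 knock-down or NTC library (0.0680 to 0.0755), with DESeq2 (0.0640), with no filter on low counts (0.0535), with the 2 groups fitted alone (0.154) and with library totals only (0.215). Suz12 missed the threshold in 1 setting, library totals only (0.0551).

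In the knock-down against NTC, Suz12 rose by 0.46 ± 0.11 on the log2 scale (edgeR adjusted p = 0.0107) and Eed rose by 0.38 ± 0.12 (edgeR adjusted p = 0.0374). Ezh2 differed by 0.05 ± 0.11, with a 95% interval of -0.19 to 0.29. It lies on chromosome 6, whose median in this comparison is given further on. Among all genes tested, 4.25% were called higher and 10.1% lower here. With scaling by library totals only, the called genes numbered 259 higher and 1154 lower, against 594 higher and 1404 lower with TMM, and neither Eed (edgeR adjusted p = 0.237) nor Suz12 (0.118) passed. Leaving out any 1 knock-down or NTC library also ended both calls, with edgeR adjusted p of 0.106 to 0.350 for Eed and 0.0524 to 0.19 for Suz12. The direction was kept in each of these fits, and within codes 12 and 34 the log2 differences were 0.31 and 0.44 for Eed and 0.44 and 0.48 for Suz12. Suz12 was also higher in the knock-down than in untreated Sca1 cells, by 0.59 ± 0.12 (edgeR adjusted p = 0.00182), where 7.34% of all genes were called higher and 9.89% lower, and this call was lost without knock-down replicate 2 (0.0633). Eed, at 218 ± 15.6 CPM in the knock-down and 199 ± 15.8 CPM in untreated Sca1 cells (SD, n = 2 each), was not called in that comparison (edgeR adjusted p = 0.489).

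Markers of other cell states moved beside Eed and Suz12. The stem cell markers Pou5f1, Nanog and Sox2 summed to 1366 and 1303 CPM in the knock-down and 1050 and 1017 CPM with NTC, where Sox2 alone of the 3 rose (0.48, edgeR adjusted p = 0.0170). They summed to 1139 and 1139 CPM in untreated cells and 1481 and 1124 CPM in mESC, where Sox2 alone fell (-0.39, edgeR adjusted p = 0.0239). The visceral endoderm markers Afp, Ttr, Apoa1, Amn and Cubn summed to 392.3 and 457.4 CPM in the knock-down and 336 and 347 CPM with NTC, and Amn alone of the 2 tested rose. They summed to 114 and 104 CPM in untreated cells and 500 and 614 CPM in mESC, and both of those tested (Amn and Cubn) fell. Afp, Ttr and Apoa1, which define that cell type, were below 1 CPM in every library. The endothelial markers Pecam1, Cdh5, Kdr and Tek summed to 99.5 and 115 CPM in the knock-down and 92.4 and 98.5 CPM with NTC, with 0 of 4 called by edgeR. They summed to 51.9 and 49.5 CPM in untreated cells and 169 and 185 CPM in mESC, where 2 of 4 fell. The part of these cells in the Eed and Suz12 values was not tested.

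Jarid2, a PRC2 partner that helps to bring the complex to its targets and is known for its role in stem cell differentiation, could not be compared between mESC and Sca1 cells in this table. It had 353 CPM in untreated Sca1 replicate 1 and 2666 CPM in replicate 2, and 498 CPM in mESC replicate 1 and 2588 CPM in replicate 2. The 2 high libraries were those of code 56, and the split within each group was larger than any difference between groups. The knock-down had 570 and 541 CPM and NTC had 377 and 352 CPM, which did not overlap. With all 8 libraries the difference between the knock-down and NTC was 0.61 ± 1.23 (log2, SE) and was not called (edgeR adjusted p = 0.823). Without the 2 libraries of code 56, a choice made after seeing the data, it was 0.60 with an edgeR adjusted p of 8.83e-11, and untreated Sca1 cells against mESC were at -0.48 (edgeR adjusted p = 4.29e-05) with 1 library each.

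The level of Jarid2 moved with that of NR_046233. NR_046233 had 15815 and 10919 CPM in the knock-down libraries and 5071 and 3868 CPM with NTC. It had 4424 and 133004 CPM in untreated cells and 7123 and 128898 CPM in mESC. Between codes 56 and 34, Jarid2 gained 2313 CPM in untreated cells and 2090 CPM in mESC, or 18.0 and 17.2 CPM for every 1000 CPM gained by NR_046233. Between the means of the knock-down and NTC, Jarid2 differed by 191 CPM and NR_046233 by 8897 CPM, or 21.5 CPM per 1000. Other pairs of libraries gave other ratios. The 2 knock-down libraries had 570 and 541 CPM of Jarid2 beside 15815 and 10919 CPM of NR_046233. In code 34, mESC had 498 CPM of Jarid2 beside 7123 CPM of NR_046233, and untreated cells had 353 beside 4424 CPM. The part of NR_046233 in the Jarid2 values was not tested. Of the 13966 genes tested, 31 were at least 2 log2 units higher in code 56 than in code 34 in both groups, and Jarid2 ranked 25 among them. The genes with levels most like Jarid2, out of 8514 with a mean of at least 20 CPM, were NR_046233 (Pearson r = 0.991), the cohesin gene Stag1 (0.989) and the Mediator kinase gene Cdk8 (0.974), over 8 libraries that share these 2 libraries of code 56. Cdk8 had 12572 and 10646 CPM in code 56 and 170 to 1325 CPM elsewhere. Stag1 differed far less, with 138 and 151 CPM in code 56 and 92.9 to 102 CPM elsewhere.

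**Figure D2:**
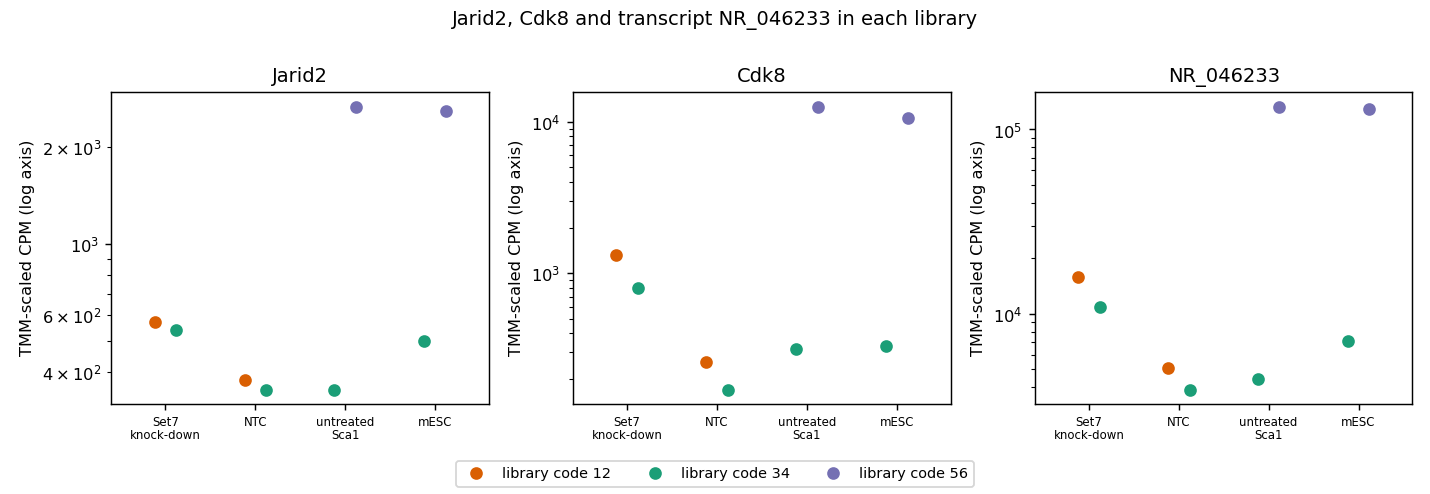
Levels of Jarid2, Cdk8 and transcript NR_046233 (TMM-scaled CPM, log axes) in the 8 libraries, coloured by library code. In all 3 panels the 2 libraries of code 56 stand above the other 6, and the knock-down libraries stand above the NTC libraries.

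The PRC1 genes split by subunit. Cbx7, the chromobox gene known as the main one of embryonic stem cells, had 416 and 417 CPM in the knock-down, 279 and 271 CPM with NTC, 243 and 180 CPM in untreated cells and 265 and 249 CPM in mESC. The knock-down libraries lay above every other library. Cbx7 rose by 0.60 ± 0.13 against NTC (log2, SE; edgeR adjusted p = 0.00378). It was also higher in the knock-down than in untreated Sca1 cells by 0.97 ± 0.13 (edgeR adjusted p = 6.03e-05), and than in mESC by 0.70 ± 0.13 (edgeR adjusted p = 0.000604), where 13.5% of all genes were called higher and 12.4% lower. In untreated Sca1 cells against mESC it was at -0.28 ± 0.13 and was not called (edgeR adjusted p = 0.111). Without untreated replicate 1 it passed there (-0.51, edgeR adjusted p = 0.00973), and without untreated replicate 2 it was at -0.08. The call against NTC was lost when any 1 knock-down or NTC library was left out (edgeR adjusted p of 0.0528 to 0.0744) and with library totals only (0.0662).

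Cbx7 lies on chromosome 15, whose genes as a whole stood higher in the knock-down. Over the 425 genes of chromosome 15 with a mean of at least 10 CPM, the median log2 difference from NTC was 0.41 and 40.2% were called higher, whereas the medians of the 19 other chromosomes, Y aside, lay between -0.16 and 0.05. Cbx7 was 0.19 above the median of its chromosome. Of the related genes on chromosome 15, L3mbtl2 (0.68) and Ep300 (0.56) also rose, Cbx6 stood at 0.38 without passing (edgeR adjusted p = 0.0799, and 0.0306 and 0.0310 without mESC replicate 1 or 2), and Yaf2 fell by 0.71. The part of the chromosome in the Cbx7 value was not tested. On chromosome Y, the 3 genes at that level had a median of -2.50 against NTC, and 100% were called lower. The part of these shifts in the knock-down values of genes on other chromosomes, such as Kdm6b, Suz12 and Eed, was not tested either. The lowest of the other medians, -0.16, was that of chromosome 6, where Ezh2 lies. Of its 474 genes at that level, 0.422% were called higher and 16.5% lower, and chromosome 8 came next at -0.06. For NTC against mESC the median of chromosome 6 was 0.145. The part of chromosome 6 in the Ezh2 values was not tested.

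**Figure D3:**
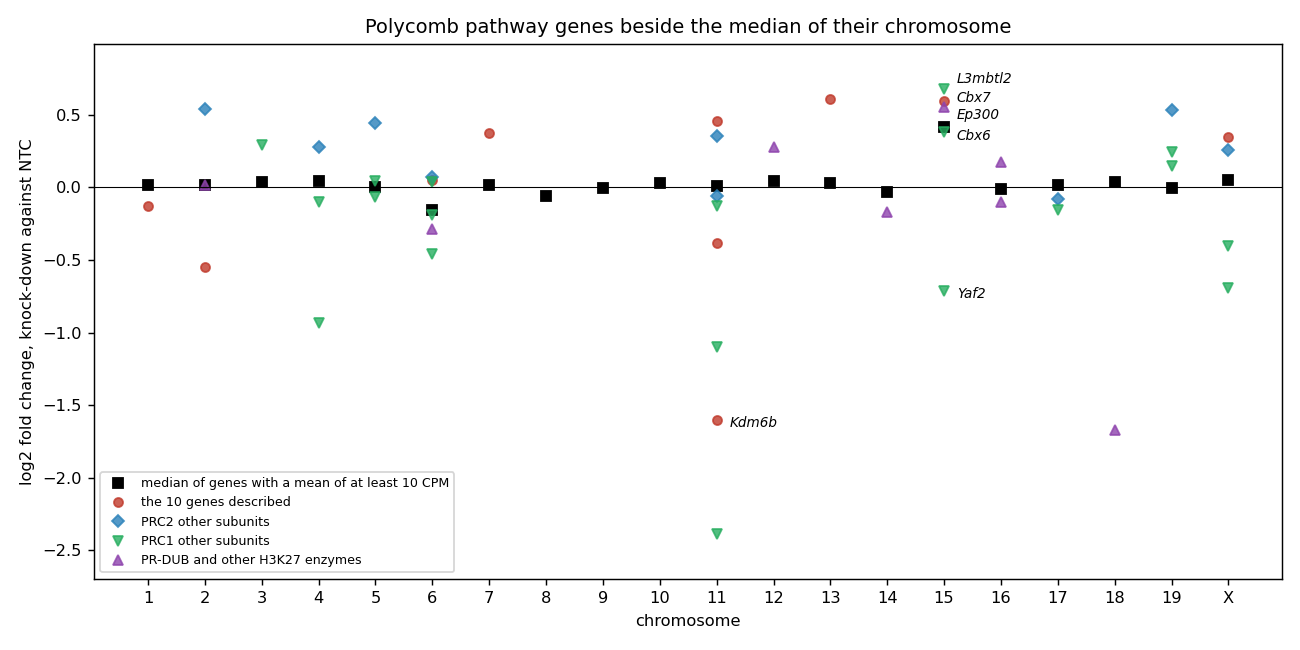
Log2 fold change of the knock-down against NTC for the 10 genes and for other Polycomb and H3K27 genes, placed by chromosome (Y not shown), with the median of each chromosome as a black square. The median of chromosome 15 is 0.41, and Cbx7 (0.60), L3mbtl2 (0.68), Ep300 (0.56) and Cbx6 (0.38) of that chromosome lie near it, whereas Kdm6b at -1.60 lies on chromosome 11, whose median is 0.01.

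Cbx2, a chromobox gene with higher levels in differentiating cells than in stem cells in earlier mouse work, had 36.4 and 40.2 CPM in the knock-down and 48.7 and 51.5 CPM with NTC. It had 51.9 and 54.3 CPM in untreated cells and 36.2 and 26.8 CPM in mESC. The 4 libraries of untreated Sca1 and NTC cells thus lay above the other 4. Cbx2 rose by 0.75 ± 0.17 in untreated Sca1 cells against mESC (log2, SE; edgeR adjusted p = 0.00249) and by 0.67 ± 0.17 in NTC cells against mESC (edgeR adjusted p = 0.00439), where 19.6% of all genes were called higher and 15.5% lower (35.1% in either direction). The NTC call was lost without NTC replicate 2 (edgeR adjusted p = 0.0529). In the knock-down against NTC it was at -0.38 ± 0.17, which did not pass (edgeR adjusted p = 0.150), and without the 2 libraries of code 56 it passed at the same size (-0.38, edgeR adjusted p = 0.0145).

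Rnf2, which encodes RING1B, the main ubiquitin ligase subunit in stem cells, was lowest in the knock-down and highest in mESC. It had 70.0 and 75.0 CPM in the knock-down, 77.8 and 81.4 CPM with NTC, 105 and 102 CPM in untreated cells and 116 and 123 CPM in mESC, and no 2 groups overlapped. Untreated Sca1 cells did not differ from mESC by the test (-0.20 ± 0.12, edgeR adjusted p = 0.207), and NTC cells did (-0.59 ± 0.12, edgeR adjusted p = 0.000858). The knock-down differed from mESC (-0.72 ± 0.12, edgeR adjusted p = 0.000275) and from untreated Sca1 cells (-0.51 ± 0.13, edgeR adjusted p = 0.00908), but not from NTC by the test (-0.13 ± 0.12, edgeR adjusted p = 0.558). The call against untreated Sca1 cells was lost without knock-down replicate 1 (edgeR adjusted p = 0.108), without knock-down replicate 2 (0.0711) and with library totals only (0.0851). Bmi1, the Polycomb ring finger subunit known for holding back the Ink4a and Arf products of Cdkn2a, was low throughout, at 5.60 and 8.13 CPM in the knock-down, 9.93 and 10.7 CPM with NTC, 14.8 and 6.19 CPM in untreated cells and 13.1 and 11.2 CPM in mESC. With 14 to 57 counts per library it was called in no comparison of the main fit, and its 95% interval for the knock-down against NTC, -1.26 to 0.17, was among the widest of the 10 genes. In the knock-down it stayed uncalled in 12 of 17 alternative settings against mESC and in 15 of 17 against untreated Sca1 cells. It was called lower in the rest, such as against mESC with no filter on low counts (-0.77, edgeR adjusted p = 0.0423).

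Of the demethylases, Kdm6b changed most and Kdm6a little. Kdm6b, an inducible enzyme known for its response to inflammatory and differentiation signals, had 22.8 and 18.7 CPM in the knock-down libraries and 69.7 and 54.6 CPM with NTC. It had 61.5 and 57.4 CPM in untreated cells and 46.5 and 40.9 CPM in mESC. Each knock-down library lay below every library of the other groups, and the libraries of untreated Sca1 and NTC cells lay above those of mESC. Kdm6b fell by 1.60 ± 0.18 in the knock-down against NTC on the log2 scale (SE; edgeR adjusted p = 5.42e-06), that is, to 0.330 of the NTC level. It was also lower in the knock-down than in untreated Sca1 cells (-1.54 ± 0.19, edgeR adjusted p = 1.82e-05) and than in mESC (-1.09 ± 0.18, edgeR adjusted p = 0.000260). Over 17 alternative settings the difference from NTC ranged from -1.77 to -1.41 and the call was kept in all 17, and within codes 12 and 34 it was -1.59 and -1.52.

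In untreated Sca1 cells against mESC, Kdm6b rose by 0.45 ± 0.17 (log2, SE; edgeR adjusted p = 0.0459), and in NTC cells against mESC by 0.51 ± 0.16 (edgeR adjusted p = 0.0207). The rise in NTC cells was kept in 13 of 17 alternative settings and was lost, among others, with DESeq2 (0.0807), without NTC replicate 1 (0.33, adjusted p = 0.310) and without mESC replicate 2 (0.0689). The rise in untreated Sca1 cells was kept in 5 of 17 alternative settings and was lost whenever a library other than mESC replicate 1 was left out (edgeR adjusted p of 0.0610 to 0.179). Kdm6a, the X-linked demethylase, had 55.7 and 69.9 CPM in the knock-down, 49.6 and 49.7 CPM with NTC, 51.3 and 49.9 CPM in untreated cells and 58.6 and 65.4 CPM in mESC. It was called in none of the 6 comparisons. The knock-down and mESC libraries lay above those of NTC and untreated Sca1 cells, with a difference of 0.35 ± 0.15 between the knock-down and NTC (edgeR adjusted p = 0.136), which passed without the 2 libraries of code 56 (0.36, edgeR adjusted p = 0.00995).

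The genes with levels most like those of Kdm6b over the 8 libraries were Cnpy4 (Pearson r = 0.987), the protease inhibitor gene Serpine2 (0.968) and the membrane protein gene Emp1 (0.968). Cnpy4 had 20.3 and 19.3 CPM in the knock-down, 40.9 and 37.9 CPM with NTC, 40.2 and 39.3 CPM in untreated cells and 35.0 and 33.9 CPM in mESC. Emp1 had 8.76 and 8.35 CPM in the knock-down, 47.0 and 53.1 CPM with NTC, 53.2 and 36.7 CPM in untreated cells and 24.3 and 23.5 CPM in mESC. These correlations describe 4 groups of 2 libraries and carry no test. The mesenchyme markers Col1a1, Col3a1, Pdgfrb and Thy1 were also lower in the knock-down than with NTC, where 3 of 4 fell, but were lowest in mESC. They summed to 67.9 and 58.5 CPM in the knock-down, 1542 and 1483 CPM with NTC, 558 and 629 CPM in untreated cells and 25.9 and 21.1 CPM in mESC. Of the 4 smooth muscle markers 3 fell, and they summed to 109 and 126 CPM in the knock-down and 500 and 529 CPM with NTC. None of these 8 markers was at 0 in every library. The part of these cells in the Kdm6b values was not tested.

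**Figure D4:**
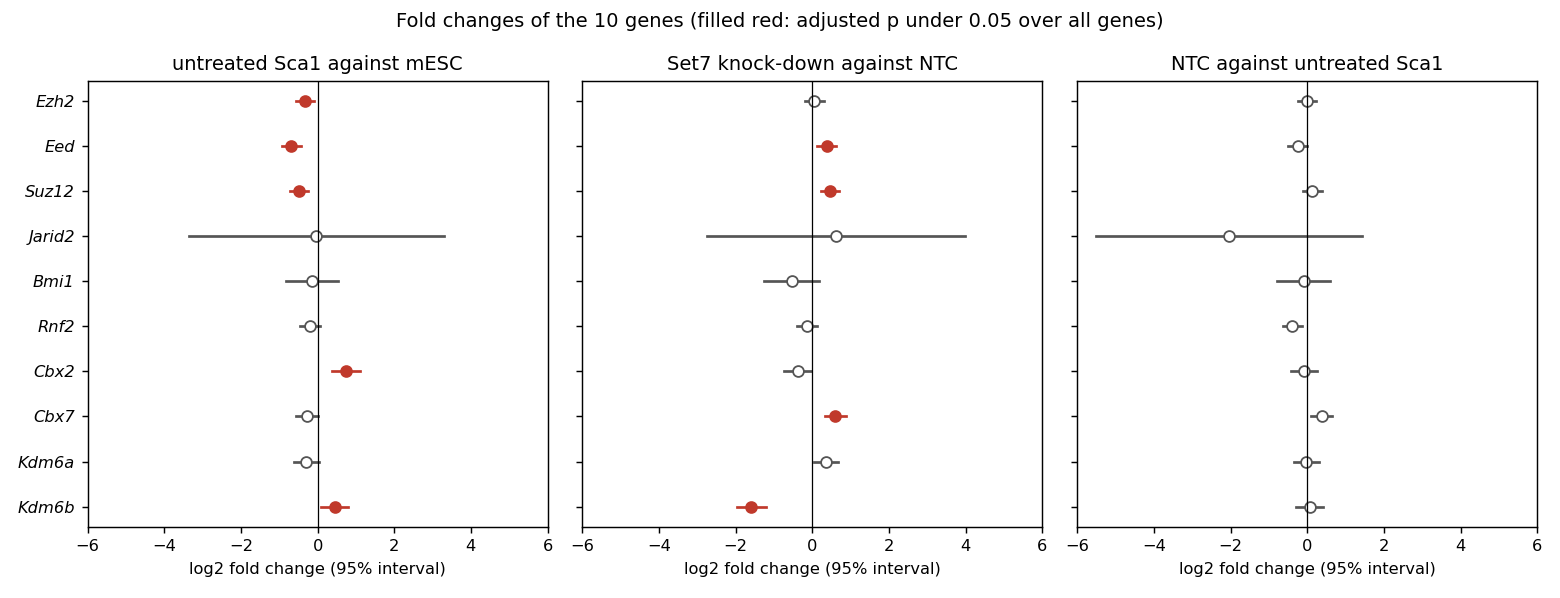
Log2 fold changes of the 10 genes with 95% intervals in 3 comparisons, each named with its first group over its second; filled red points passed an adjusted p of 0.05 over all genes. Kdm6b at -1.60 is the largest called change, and the interval of Jarid2 is the widest in each panel, at -2.75 to 3.97 for the knock-down against NTC.

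NTC cells differ from untreated Sca1 cells in transduction and selection, and their libraries differ partly in library code. Of the 10 genes 0 were called by edgeR, where 3.88% of all genes were called higher and 1.11% lower (4.99% in either direction; 493 and 18 genes with library totals only, against 542 and 155 with TMM). Of the 10, 2 had an unadjusted p under 0.05, and DESeq2 called 0. These 2 were Rnf2, with 77.8 and 81.4 CPM in NTC libraries against 105 and 102 CPM in untreated ones (log2 -0.38 ± 0.12, edgeR adjusted p = 0.0838), and Cbx7, with 279 and 271 CPM in NTC libraries against 243 and 180 CPM in untreated ones (0.38 ± 0.13, edgeR adjusted p = 0.109). For Kdm6b the difference was 0.06 ± 0.16, with a 95% interval of -0.29 to 0.40. Without the 2 libraries of code 56, Rnf2 (-0.41, edgeR adjusted p = 0.00795) and Eed (-0.33, edgeR adjusted p = 0.00827) passed, with 1 untreated library left. Rnf2 (0.0263 and 0.0261) and Cbx7 (0.0430 and 0.0401) also passed when mESC replicate 1 or mESC replicate 2 was left out, and Cbx7 without untreated replicate 1 (0.61, edgeR adjusted p = 0.0258).

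Ordered by level per length, the 10 genes kept similar places in the groups. Divided by the transcript length in GENCODE vM21, Cbx7 (144 CPM per kb), Jarid2 (134), Eed (105), Suz12 (90.7) and Ezh2 (66.8) led in the knock-down. With NTC the means were 94.9 for Cbx7, 88.1 for Jarid2, 81.4 for Eed, 66.0 for Suz12 and 64.5 CPM per kb for Ezh2. The Jarid2 transcripts of 4135 and 5019 bases had the same total of 28372 counts, and the shorter was used. The longer would give lower values per kb, so the place of Jarid2 relative to Eed depends on that choice. In untreated Sca1 cells Eed (96.3), Cbx7 (72.9), Ezh2 (64.5) and Suz12 (60.2) led, Jarid2 aside, and in mESC Eed (155), Cbx7 (88.7), Suz12 (84.5) and Ezh2 (81.0 CPM per kb). Rnf2 lay at 22.9 CPM per kb in the knock-down, 25.2 with NTC, 32.8 in untreated cells and 37.8 in mESC. Cbx2, Kdm6a, Kdm6b and Bmi1 lay at 1.91 to 14.0 CPM per kb in all groups. Kdm6b and Kdm6a lay close together with NTC, at 10.5 and 8.21 CPM per kb for Kdm6b and 8.36 and 8.38 for Kdm6a, and in untreated Sca1 cells, with means of 8.94 for Kdm6b and 8.53 for Kdm6a. The mean of Kdm6b lay below that of Kdm6a in the knock-down (3.11 against 10.6) and in mESC (6.57 against 10.4).

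The other subunits of PRC2 moved in both directions. Of 9 (Ezh1, Rbbp4, Rbbp7, Mtf2, Phf1, Phf19, Aebp2, Epop and Lcor), 2 rose, 2 fell and 5 did not pass in untreated Sca1 cells against mESC (18.7% of all genes were called higher and 16.8% lower), with a median of -0.22 against -0.01 over all genes tested. Mtf2, which encodes a Polycomb-like protein that ties PRC2 to CpG islands, had 275 and 233 CPM in untreated cells and 369 and 387 CPM in mESC, and fell by 0.57 ± 0.12 (log2, SE; edgeR adjusted p = 0.000995). Phf1, another Polycomb-like gene, had 9.89 and 8.84 CPM in untreated cells and 15.3 and 16.3 CPM in mESC and fell by 0.74, the Polycomb-like gene Phf19 rose by 1.12, and Rbbp7, a histone-binding subunit, rose by 0.47. Rbbp7 lost its call with library totals only (edgeR adjusted p = 0.0621) and without mESC replicate 2 (0.29, adjusted p = 0.0573). Phf1 and Phf19 lost their calls without the libraries of code 56 (edgeR adjusted p = 0.134 and 0.277) and without untreated replicate 2 (0.110 and 0.108), among other settings. Relative to NTC, Mtf2 alone of the 9 rose, with 349 and 370 CPM in the knock-down against 260 and 270 CPM with NTC (0.44 ± 0.12, edgeR adjusted p = 0.0146), and none fell. The median was 0.28 against 0.00 over all genes tested. Without the 2 libraries of code 56 more of the 9 were called, as were more of all genes tested. With library totals only, 0 of 9 were called, where calls over all genes went from 1998 to 1413. The Mtf2 call was lost without any 1 knock-down or NTC library (edgeR adjusted p of 0.0824 to 0.189). Mtf2 thus passed in the same directions as Eed and Suz12 in both comparisons.

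Of the 20 other PRC1 genes listed, 19 were tested, and Auts2 was not analysed here. For untreated Sca1 cells relative to mESC, 7 rose, 1 fell and 11 did not pass, with a median of 0.27, beside 18.7% higher and 16.8% lower over all genes. Phc2, a polyhomeotic subunit whose SAM domain lets PRC1 cluster, had 108 and 89.7 CPM in untreated cells and 45.1 and 37.9 CPM in mESC (1.26 ± 0.15, edgeR adjusted p = 5.38e-06). Yaf2, a subunit of variant PRC1, rose by 1.14, the sex comb gene Scmh1 by 0.99 and the chromobox gene Cbx6 by 0.59, and the one that fell, Phc3, did so by 0.63. Relative to NTC, 1 rose in the knock-down, 3 fell and 15 did not pass, with a median of -0.13, beside 4.25% higher and 10.1% lower over all genes. Phc2 had 55.3 and 45.5 CPM in the knock-down and 92.6 and 98.5 CPM with NTC, and fell by 0.94 ± 0.15 (edgeR adjusted p = 0.000300). Yaf2 (-0.71) and Cbx8 (-2.39, at 0.570 ± 0.184 CPM in the knock-down and 2.97 ± 0.526 CPM with NTC, SD, n = 2 each) also fell, and L3mbtl2 rose, with 277 and 262 CPM in the knock-down and 170 and 166 CPM with NTC. The L3mbtl2 call was lost without knock-down replicate 1 (edgeR adjusted p = 0.0514). The calls of Yaf2 and Cbx8 were lost when any 1 knock-down or NTC library was left out (edgeR adjusted p of 0.131 to 0.236 and of 0.0799 to 0.249). Without the 2 libraries of code 56, more of these PRC1 genes were called, as were more of all genes tested.

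**Figure D5:**
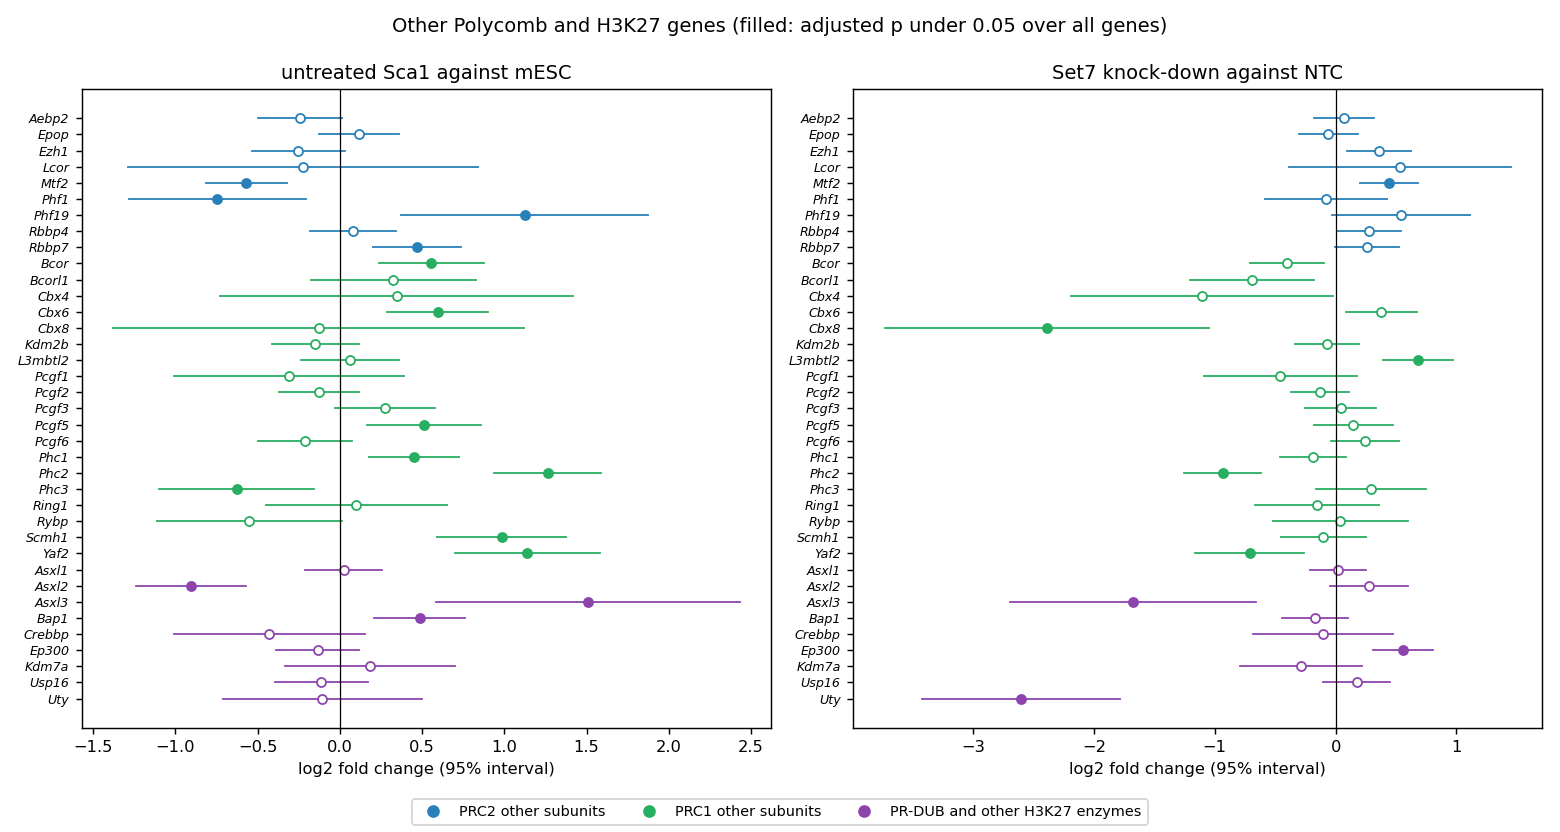
Log2 fold changes with 95% intervals of the other PRC2 subunits, the other PRC1 subunits and the PR-DUB and other H3K27 enzymes, for untreated Sca1 cells against mESC and for the knock-down against NTC; filled points passed an adjusted p of 0.05 over all genes. Phc2 and Yaf2 are filled right of 0 in the first panel and left of 0 in the second, and Mtf2 the other way round.

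Among 9 genes of the PR-DUB complex, which takes ubiquitin off histone H2A, and of other enzymes that act on H3K27, 2 rose, 1 fell and 6 did not pass in untreated Sca1 cells against mESC, a share near the 35.5% called over all genes. Bap1, the deubiquitinase, rose by 0.48 and its partner gene Asxl3 by 1.51, while Asxl2 fell by 0.91 (edgeR adjusted p = 0.000229), and the median was -0.11. The Bap1 call was lost without mESC replicate 2 (edgeR adjusted p = 0.0664), and the Asxl3 call with DESeq2 (0.112), without untreated replicate 1 (0.0599), without mESC replicate 2 (0.0837) and without code 56 (0.0831). Among the same 9 genes in the knock-down, Ep300, an acetyltransferase that acts on H3K27, had 255 and 262 CPM in the knock-down against 174 and 178 CPM with NTC and rose by 0.56 ± 0.12 (edgeR adjusted p = 0.00325). Asxl3 fell by 1.67 and Uty by 2.60, and 6 did not pass, with a median of -0.10. Ep300 lost its call without knock-down replicate 2, NTC replicate 1 or NTC replicate 2 (edgeR adjusted p of 0.0515 to 0.0718), and Asxl3 without any 1 knock-down or NTC library (0.136 to 0.180). Uty, the Y-linked paralogue of Kdm6a, had 3.15 and 4.40 CPM in the knock-down and 21.3 and 26.3 CPM with NTC (-2.60 ± 0.38, edgeR adjusted p = 0.000222). Of 3 other Y-linked genes, picked after their values were seen, Ddx3y fell too, with 6.30 and 9.45 CPM in the knock-down and 29.8 and 35.7 CPM with NTC (edgeR adjusted p = 4.56e-06). Eif2s3y fell as well (-2.50, edgeR adjusted p = 3.54e-08), and Kdm5d, with 1.05 and 1.76 CPM in the knock-down and 2.36 and 3.57 CPM with NTC, did not pass (edgeR adjusted p = 0.270). The part of the Y chromosome in the Uty value was not tested. How the counting treated reads shared by Kdm6a and Uty is not known here.

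The list of 39 developmental regulators known as targets of Polycomb in mouse stem cells had 19 members that passed the filter on low counts. In untreated Sca1 cells against mESC 12 of these rose, 3 fell and 4 did not pass, with a median of 1.68 (also 1.68 when genes absent from mESC take their lower bound), and since a gene silent in mESC passes the filter only where it is present elsewhere, this count is a description. Cdx2, a trophoblast and posterior body factor, had 69.8 and 78.6 CPM in untreated Sca1 cells against 7.10 and 6.16 CPM in mESC (3.48 ± 0.18, edgeR adjusted p = 2.27e-10). Msx1, a homeobox factor of limb and neural crest, rose by 3.98. Cdx4 had 64 counts over untreated Sca1 libraries and 0 over mESC libraries, at least 34.6-fold higher with 3 counts over the group as floor. Pax3 had 60 counts against 2, a ratio of 48.6 with an exact 95% counting interval of 12.9 to 411, and the interval and the floor cover counting error only. Gata4, Gata6 and Tbx3, picked after their values were seen, fell by 1.12, 1.53 and 1.12.

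In the knock-down against NTC, 7 of the 19 fell, 1 rose and 11 did not pass, with a median of -0.69, beside 10.1% lower and 4.25% higher over all genes. Here too, a gene low in the knock-down passes the filter only through groups where it is present, so the count and the median are a description. The one that rose was Eomes (1.08, edgeR adjusted p = 0.0126), and it did not pass without NTC replicate 1 (0.160), NTC replicate 2 (0.0565) or knock-down replicate 2 (0.74, adjusted p = 0.312). Hand2, a heart and limb factor, had 1 count in the knock-down libraries and 58 with NTC, 49.3-fold lower with a counting interval of 8.50 to 1979. Msx2 had 10.2 and 11.2 CPM in the knock-down against 26.9 and 27.2 CPM with NTC (-1.33 ± 0.22, edgeR adjusted p = 0.000351), and Msx1 fell by 1.24. Hand1 had 8 counts in the knock-down and 62 with NTC (-2.67 ± 0.56, edgeR adjusted p = 0.00350), a call that was lost without knock-down replicate 2 (0.152) or NTC replicate 1 (0.0559). Cdkn2a and Cdkn2b, the cell-cycle inhibitor genes that are the textbook Polycomb targets of cultured cells, were picked after their values were seen. Cdkn2b had 5.25 and 4.62 CPM in the knock-down and 13.9 and 12.0 CPM with NTC, and fell by 1.40 ± 0.31 (edgeR adjusted p = 0.00482). It had 19.2 and 15.5 CPM in untreated cells and 4.12 and 2.20 CPM in mESC, a rise of 2.46. Cdkn2a had 13.0 and 11.4 CPM in the knock-down and 20.6 and 18.5 CPM with NTC (-0.69 ± 0.25), which did not pass (edgeR adjusted p = 0.0744). With NTC set against untreated Sca1 cells, 1 of the 19 was called, Eomes, which fell by 1.14 (edgeR adjusted p = 0.0266) and did not pass without the 2 libraries of code 56 (-0.70, edgeR adjusted p = 0.0640). The call was also lost with library totals only (0.0507), without either knock-down library, without either NTC library and without untreated replicate 2 (0.0524 to 0.281). Of the other PRC2, PRC1 and PR-DUB genes, 0 were called by edgeR in that comparison.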

How the data were processed

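Poly(A) RNA of 8 libraries in 4 groups was analysed from whole-number counts per RefSeq transcript that the authors deposited in 1 table of 29614 rows. Per the submitters' processing notes, BWA 0.5.9, SAMtools 0.1.17 and edgeR 0.19 were used; their roles, the genome build and the use of strand in counting were not given in the sources used here. Reads of a gene and of an antisense partner therefore cannot be told apart. Of the rows, 28985 had a name in RefSeq, 173 were named from GENCODE metadata and 456 stayed unnamed. The row with the highest total stood for each of 23483 genes, since 2062 of the 3853 genes with several rows had identical ones. The Y-linked gene Uty and Kdm6a are paralogues.

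Groups came from GEO's labels. Genes passing edgeR's default filter (13966) were fitted over all 4 groups with TMM scaling and the quasi-likelihood test in edgeR 4.0.16 (limma 3.58.1, R 4.3.3), with Benjamini-Hochberg adjustment over all genes tested and a threshold of 0.05. Fold changes are log2 with SE, and intervals are 95%. The fit was tested on simulated data. These gave every library the same mean per gene apart from the planted changes. They held no split by library code, so they do not cover the split of code 56. The precision is limited by 2507938 to 5080266 counts per library and 2 libraries per group. Alternatives were DESeq2 1.42.0, other scalings and filters, the 2 groups alone, summed transcripts, a block for library code and each library left out; leaving out both libraries of code 56 was chosen after seeing the data.

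The 10 genes and all lists were chosen with earlier results of these data known. Beyond the 10, up to 4 genes a list and comparison were named, those with the smallest p among those called, with the 3 genes most like Jarid2 and Kdm6b in level. Genes on chromosomes 15 and Y, NR_046233, Phc3, Cdkn2a, Cdkn2b, Gata4, Gata6, Tbx3 and, for the knock-down, Eomes were named after their values were seen.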

Additional observations from a re-analysis of the deposited data

How the results depend on the processing

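Of the 10 genes, 5 were called in untreated Sca1 cells against mESC; the count was 2 with library totals only, 3 with DESeq2, 3 with these 2 groups alone and 3 to 5 when 1 library was left out. In the knock-down against NTC, 4 were called, against 1 with library totals only, 7 with these groups alone, 7 without the libraries of code 56 and 1 to 4 with 1 library left out. Over all genes, this comparison gave 1998 calls, against 1225 with DESeq2, 4416 with these groups alone, 4462 without code 56 and 648 to 2826 with 1 library left out. NTC against untreated Sca1 cells gave 0 calls among the 10, against 1 with no filter (Jarid2), 1 with these groups alone (Rnf2), 2 without code 56 and 0 to 2 with 1 library left out. Over all genes it gave 697 calls, against 1148 with no filter, 1261 with the library code as a block, 2386 without code 56 and 57 to 1517 with 1 library left out. NTC against mESC gave 6 among the 10 (3 to 6 with 1 library left out) and 4898 over all genes (2906 to 5267). The knock-down against mESC gave 3615 over all genes, against 2405 with DESeq2 and 1844 to 4271 with 1 library left out. The knock-down against untreated Sca1 cells gave 4 among the 10, against 7 without code 56 and 2 to 5 with 1 library left out, and 2406 over all genes, against 1456 with DESeq2 and 796 to 3292. There Jarid2 stood at -1.44 and reversed to 0.46 with the library code as a block and to 0.64 without code 56. Over all genes tested, 35.5% were called in untreated Sca1 cells against mESC and 14.3% in the knock-down against NTC. The share was 4.99% for NTC against untreated Sca1 cells and 35.1% for NTC against mESC. For the knock-down it was 25.9% against mESC and 17.2% against untreated Sca1 cells. The counts among the 10 are to be read beside these shares.

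With library totals only, the median of all genes stood at 0.10 for NTC against untreated Sca1 cells and at 0.12 for NTC against mESC (0.02 and -0.01 with TMM), and the share of higher calls was 96.5% and 70.7%, against 77.8% and 55.9% with TMM. For the knock-down against mESC that share was 64.0%, against 52.1%. Leaving out a library of a group leaves 1, which is assumed to vary like the other groups. Deviations of libraries of the same code correlated at 0.265 (untreated Sca1 cells and mESC) and 0.053 (knock-down and NTC), over only 2 pairs each, which does not establish that codes pair the libraries. With the code as a block, Jarid2 passed in the knock-down against NTC (0.61, edgeR adjusted p = 0.000494), Cbx7 passed in untreated Sca1 cells against mESC (-0.29, 0.0185), and Kdm6b did not pass in NTC cells against mESC (0.26, 0.243). The causes of these changes were not tested.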
